A study of Mus musculus with 10 samples.

Results

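The genes described here encode the SNARE proteins that fuse vesicles with membranes, together with the factors that dock and prime vesicles before fusion: syntaxins, SNAPs, VAMPs, Munc18 and Munc13 proteins, RIMs, complexins, synapsins and the exocyst. They were chosen by gene symbol, from a list of 44 names. Of these, 43 were found among the 47340 rows of the FPKM table, and the remaining name, Piclo, matched no row and was not analysed. FPKM relates the fragments of a gene to its exon length and to a total of mapped fragments, so levels can be set side by side between genes. How that total was scaled between libraries is not given. Some genes, such as Ins1 and Ins2, are listed at 0 in every library, so not every listed level can be relied on. Islets came from male mice aged 12 wk on chow, in 2 groups of 5 mice with 1 library per mouse. The FL mice are homozygous for a floxed Fitm2 gene, which encodes FIT2. Their titles call them Flox, although their genotype label reads wild type. The KO mice (beta-FIT2KO) carry the same floxed alleles and, in addition, Cre recombinase driven by the rat insulin promoter, which acts in β cells. No library came from mice with Cre and unfloxed Fitm2, so Cre and the loss of FIT2 cannot be told apart. All islets recovered overnight in culture before RNA was harvested.

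Insulin leaves the β cell when a dense core granule fuses with the plasma membrane. Syntaxin and SNAP proteins on the target membrane zip together with a VAMP protein on the granule, and this bundle pulls the membranes into contact. Munc18 proteins hold and guide syntaxin, Munc13 and CAPS proteins prime the granule, RIM proteins keep granules close to calcium channels, complexin and Doc2 proteins tune the response to calcium, and NSF with its SNAP adaptors takes spent bundles apart. The exocyst tethers vesicles to the plasma membrane before SNAREs engage.

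Fitm2, the deleted gene, was at 23.3 ± 9.86 FPKM in FL against 6.95 ± 2.36 FPKM in KO (SD, n = 5), and its groups did not overlap. The number of reads is not part of the table, but values under 0.3 FPKM move in steps of single reads, and these steps put the depth at 1.40 to 2.41 times that of FL mouse 1 for FL mice 2 to 5 and at 1.52 to 2.06 times for KO mice. Islets are mixtures, and in whole islets fewer cells of a type cannot be told apart from less RNA per cell. Of 8 β cell markers, Ins1, Ins2 and Iapp are listed at 0 in all 10 libraries, so they do not check the tissue. Of the other 5, 4 were lower and 0 higher in KO, and the marker sum was 1917 to 2418 FPKM in FL and 1279 to 1840 FPKM in KO. Alpha cell markers summed to 505 to 733 FPKM in FL and 359 to 495 FPKM in KO, with Gcg listed at 0 in every library. Ttr made up most of these sums (mean 491 FPKM in FL, 335 FPKM in KO). Of the 6 alpha cell markers tested, 2 were called lower, Ttr and Irx1, and 0 higher. Marker sums were higher in every KO than in every FL mouse for endothelial cells (118 to 136 FPKM in FL, 143 to 187 FPKM in KO), leukocytes (107 to 118 and 133 to 177 FPKM) and stellate cells or fibroblasts (9.61 to 17.3 and 21.4 to 26.6 FPKM), while acinar sums overlapped (3781 to 9586 and 2469 to 18150 FPKM). Duct cell sums were lower in every KO than in every FL mouse (438 to 520 FPKM in FL, 358 to 415 FPKM in KO). Krt7, called lower, made up most of these sums (mean 451 FPKM in FL, 356 FPKM in KO). Krt19 was not called (30.9 and 29.8 FPKM, adjusted p = 0.785 from limma), and Sox9, at 0.481 and 0.701 FPKM, was not tested. Cftr was called higher (0.0372 and 2.13 FPKM) and reached the 1 FPKM needed for testing only in KO. Delta cell sums were below the FL range in 4 of the 5 KO mice (4960 to 5852 FPKM in FL, 3993 to 5339 FPKM in KO). Sst, called lower, made up most of these sums (mean 4976 FPKM in FL, 4091 FPKM in KO). Hhex, Rbp4 and Ghsr were not called (adjusted p = 0.965, 0.0785 and 0.439 from limma). The sums of PP and epsilon cells and of Schwann cells or neurons overlapped. Among the Schwann cell or neuron markers, Ngfr was called higher (mean 1.36 FPKM in FL, 6.09 FPKM in KO). Rbfox3, from the same marker list, was called lower (mean 1.05 FPKM in FL, 0.606 FPKM in KO) and reached the 1 FPKM needed for testing only in FL. The part of these shifts in the differences described for single members was not tested.

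Of the 43 members, 34 did not pass the test between KO and FL islets. The test was limma's, on log2(FPKM + 1), across the 13065 genes whose group mean reached 1 FPKM in FL, KO or both, and genes were called at a Benjamini-Hochberg adjusted p of at most 0.05. All 43 members reached this level. In KO islets 8 were lower (Doc2b, Syn2, Cadps, Pclo, Stxbp2, Vamp4, Cplx2 and Vamp3) and 1 was higher (Exoc4). Of all tested genes, 25.5% were called, 16.5% lower and 9.05% higher, so the 18.6% of members called lower was close to the background, and the 2.33% called higher was below it. The median log2 fold change was −0.07 over the members and −0.06 over all tested genes. With the libraries rescaled by the median ratio, calls over all genes moved from 2150 lower and 1183 higher to 1685 lower and 1546 higher, while the members gave 7 lower and 1 higher. Every KO mouse lay below every FL mouse in 7 members, and above in 1, against 12.5% and 6.67% of all tested genes. The lower members stood in 6 of the 10 roles into which the list was divided, and syntaxins, SNAPs, the disassembly factors and the exocyst had none.

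**Figure D1:**
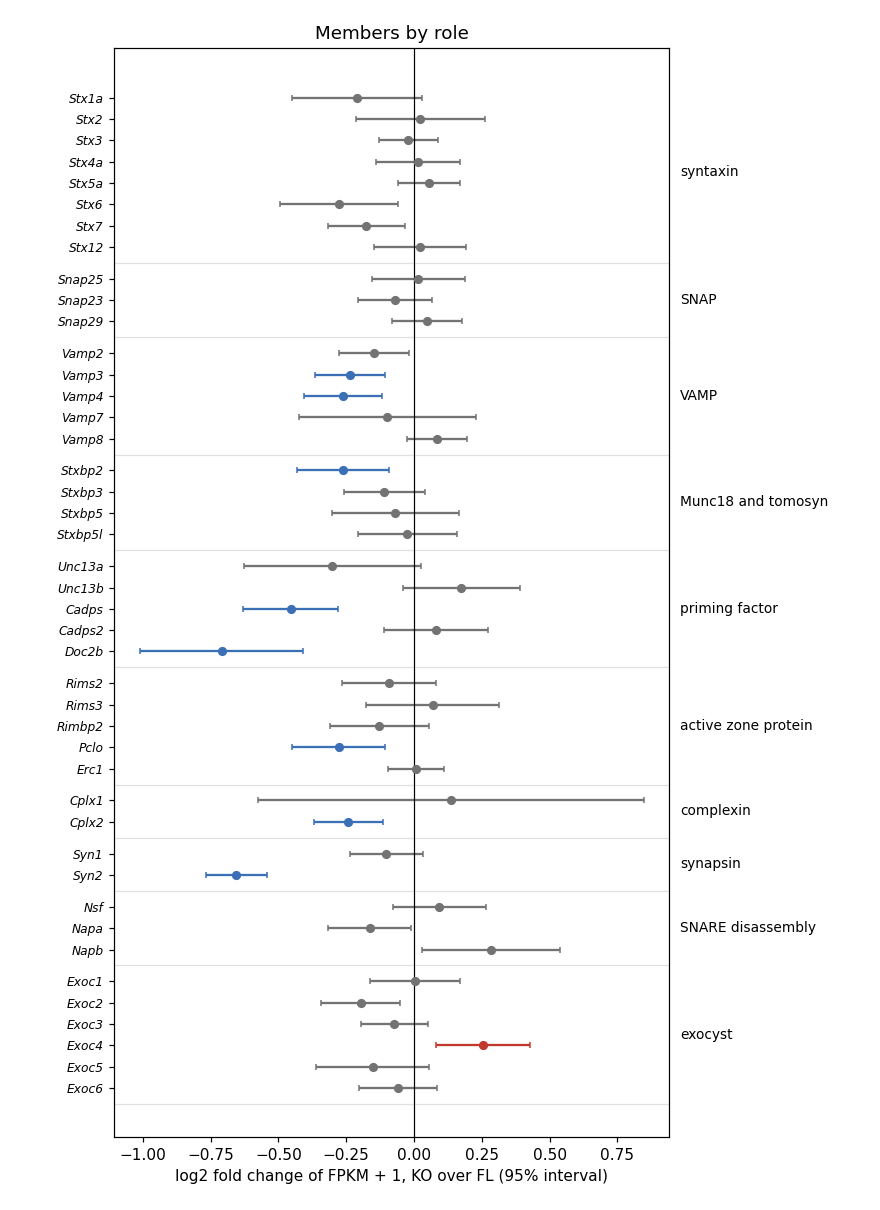
Log2 fold change of FPKM + 1 in KO over FL islets (horizontal axis) for the 43 members, grouped by role, with the 95% interval from limma as bars; blue points are called lower, red is called higher and grey did not pass. Blue points reach from −0.71 for Doc2b to −0.24 for Vamp3, and the red point is Exoc4 at 0.26.

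Among the syntaxins, the target-membrane SNAREs, none of the 8 passed the test. Stx7, a syntaxin of late endosomes, had the highest level of the family, at 73.4, 72.7, 76.7, 80.7 and 73.2 FPKM in FL mice 1 to 5 and at 71.7, 57.7, 70.9, 69.7 and 63.8 FPKM in KO mice. Its groups did not overlap, yet the log2 fold change of −0.18 did not pass (SE 0.06, adjusted p = 0.0685 from limma). Stx6, which works at the trans-Golgi network and on endosomes, was at 45.1, 46.0, 52.2, 42.5 and 54.0 FPKM in FL and at 33.1, 47.0, 41.3, 35.1 and 41.4 FPKM in KO. KO mouse 2 was the only KO mouse inside the FL range of Stx6, and without it the adjusted p went from 0.0637 to 0.0237 from limma. Leaving out the mouse that overlaps favours a call, so this is no separate support. Stx6 passed in 3 of the 19 alternative fits, with adjusted p up to 0.141 from limma. Stx1a, the syntaxin of the insulin granule fusion site at the plasma membrane, was at 7.38, 6.41, 7.28, 6.32 and 7.17 FPKM in FL and at 4.37, 7.73, 5.75, 5.73 and 5.94 FPKM in KO. Here too KO mouse 2 alone overlapped FL, as the highest of all 10 libraries, and the adjusted p of 0.183 from limma fell to 0.0298 without it. The same limit holds, and Stx1a passed in 2 of the 19 alternative fits, with adjusted p up to 0.359 from limma. For the plasma membrane syntaxins Stx2, Stx3 and Stx4a, the 95% interval of the log2 fold change was −0.21 to 0.26, −0.13 to 0.09 and −0.14 to 0.17. For Stx5a of the Golgi and Stx12 of recycling endosomes it was −0.06 to 0.17 and −0.15 to 0.19.

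The SNAP proteins, which supply a pair of helices to the SNARE bundle, had no member past the threshold. Snap25, the partner of syntaxin 1A in regulated exocytosis, was at 85.0, 94.7, 82.4, 98.3 and 94.1 FPKM in FL and at 97.3, 88.0, 102.9, 93.8 and 78.4 FPKM in KO, with the KO mice on both sides of the FL range. The 95% interval of its log2 fold change was −0.16 to 0.19. Snap23, its broadly expressed relative, was at 48.4 ± 3.27 FPKM in FL against 46.1 ± 3.19 FPKM in KO, and Snap29, which acts on internal membranes, at 18.2 ± 1.04 and 18.9 ± 1.29 FPKM (SD, n = 5). Both pairs of groups overlapped.

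Of the 5 VAMPs, the vesicle SNAREs, 2 were lower in KO and 0 higher. Vamp4, which sorts between the trans-Golgi network, endosomes and immature granules, was at 74.6, 74.2, 69.4, 81.2 and 69.5 FPKM in FL and at 62.6, 57.3, 67.3, 64.4 and 55.6 FPKM in KO. The groups were separate, and the log2 fold change was −0.26 (SE 0.06, adjusted p = 0.0139 from limma). Vamp3, or cellubrevin, a VAMP of recycling endosomes, was at 49.6, 51.0, 49.4, 56.0 and 47.6 FPKM in FL and at 42.3, 40.2, 46.8, 45.1 and 40.3 FPKM in KO, also without overlap (log2 fold change −0.24, SE 0.06, adjusted p = 0.0147 from limma). Both genes stayed called in all 19 alternatives. Vamp2, the granule SNARE of insulin release, was at 97.1, 112.4, 106.2, 94.5 and 110.5 FPKM in FL and at 97.5, 88.3, 97.7, 92.5 and 92.9 FPKM in KO. Its 2 lowest FL mice lay within the KO range, and the log2 fold change of −0.15 did not pass (adjusted p = 0.0887 from limma), though it did without FL mouse 4 (adjusted p = 0.0430), the lowest FL mouse. Vamp2 passed in 2 of the 19 alternatives, with adjusted p up to 0.260 from limma. Vamp8, which serves late endosomes and a part of regulated secretion, was the most abundant VAMP, at 136, 151, 144, 147 and 141 FPKM in FL and at 147, 166, 145, 147 and 158 FPKM in KO, with the groups overlapping (adjusted p = 0.250 from limma). Vamp7, a VAMP of late endosomes and lysosomes, ranged from 29.6 to 40.4 FPKM in FL and from 20.5 to 36.8 FPKM in KO, where KO mouse 2 was the lowest.

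Stxbp2, or Munc18-2, a syntaxin-binding protein known from secretion by epithelial and blood cells, was the most abundant of the 4 syntaxin-binding members. It was at 129, 109, 126, 104 and 111 FPKM in FL and at 106, 95.2, 85.3, 92.9 and 101 FPKM in KO. Only KO mouse 1, at 106 FPKM, reached the FL range, above FL mouse 4. The log2 fold change was −0.26 (SE 0.08, adjusted p = 0.0295 from limma), but the call was lost with the libraries rescaled by median ratio (adjusted p = 0.0912), upper quartile (0.0874) or sum (0.0775), and with no filter on low values (0.0529). It was lost as well without FL mouse 1 (adjusted p = 0.0642), FL mouse 3 (0.0722), KO mouse 3 (0.0601) or KO mouse 4 (0.0670). Stxbp3, or Munc18c, the partner of syntaxin 4, was at 25.8 ± 2.53 FPKM in FL against 23.8 ± 1.38 FPKM in KO (SD, n = 5). The tomosyns, which hold syntaxin in inactive bundles, were at 27.8 ± 3.38 and 26.5 ± 3.93 FPKM for Stxbp5 and at 7.31 ± 0.583 and 7.19 ± 0.925 FPKM for Stxbp5l (SD, n = 5), with adjusted p of 0.677 and 0.854 from limma.

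Of the 5 priming factors, 2 were lower, and these had the first and the third largest falls of the list. Doc2b, a calcium-binding protein that meets Munc13, Munc18 and syntaxin 4 at the plasma membrane, was at 2.22, 2.41, 1.60, 1.997 and 2.66 FPKM in FL and at 0.527, 1.03, 1.49, 0.901 and 0.833 FPKM in KO. The highest KO mouse, mouse 3, stayed just below the lowest FL mouse, which was also mouse 3 of its group. The log2 fold change was −0.71 (SE 0.14, adjusted p = 0.00369 from limma) on the log2(FPKM + 1) scale, which understates changes at such low levels. With a pseudocount of 0.1 it was −1.16. Doc2b was tested because its FL mean was over 1 FPKM, while its KO mean of 0.955 FPKM was not. Cadps, which encodes CAPS1, a priming factor of dense core granules, was at 43.3, 37.4, 46.2, 45.1 and 47.5 FPKM in FL and at 32.1, 31.3, 35.4, 32.8 and 27.2 FPKM in KO. No KO mouse reached the FL range, and the mean was 27.7% lower in KO (log2 fold change −0.45, SE 0.08, adjusted p = 0.00214 from limma). Its relative Cadps2 was at 6.29 ± 0.681 FPKM in FL against 6.71 ± 0.774 FPKM in KO (SD, n = 5; adjusted p = 0.538 from limma). Unc13a, which encodes Munc13-1, the main Munc13 of synapses, was at 15.4, 22.4, 22.7, 17.1 and 17.7 FPKM in FL and at 16.5, 12.8, 21.2, 13.3 and 13.1 FPKM in KO. KO mouse 3 was the highest of the KO mice, and the adjusted p of 0.162 from limma became 0.0321 without it. Unc13a passed in only this 1 of the 19 alternatives, with adjusted p up to 0.310 from limma. Unc13b, or Munc13-2, was at 10.5, 14.3, 14.0, 12.2 and 15.5 FPKM in FL and at 15.5, 15.9, 15.7, 15.1 and 12.9 FPKM in KO, and did not pass (adjusted p = 0.216 from limma).

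**Figure D2:**
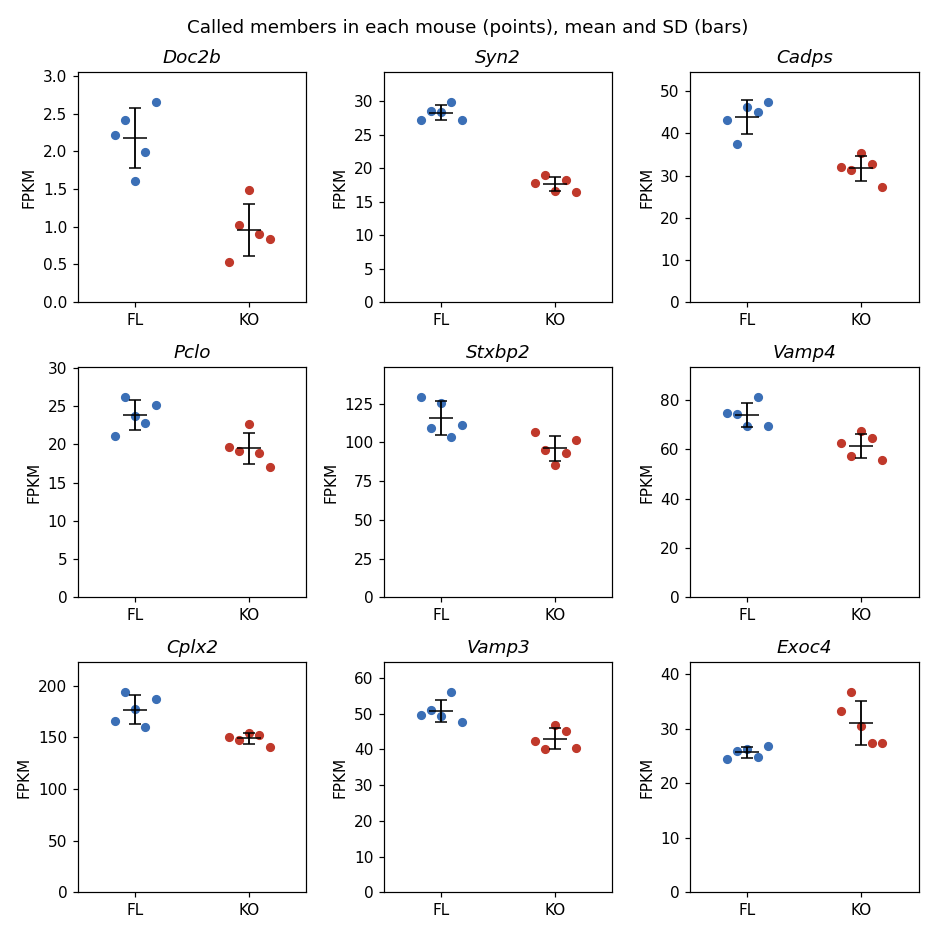
FPKM of the 9 called members in each FL and KO mouse (points, vertical axis from 0), with mean and SD as black bars and panels ordered from the lowest to the highest log2 fold change. Doc2b, Syn2, Cadps, Vamp4, Cplx2 and Vamp3 have every KO mouse below every FL mouse, Pclo and Stxbp2 overlap at their edges, and Exoc4 has every KO mouse above every FL mouse.

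Of the 5 active zone proteins, the scaffold that keeps vesicles near calcium channels, 1 was lower. Pclo, which encodes Piccolo, a very large scaffold protein and calcium sensor, was at 21.2, 26.2, 23.7, 22.8 and 25.1 FPKM in FL and at 19.6, 19.2, 22.7, 18.8 and 17.0 FPKM in KO. KO mouse 3 was the one KO library above an FL library. The log2 fold change was −0.28 (SE 0.08, adjusted p = 0.0239 from limma), and the call was lost without FL mouse 2 (adjusted p = 0.0553), FL mouse 5 (0.0576), KO mouse 4 (0.0556) or KO mouse 5 (0.0504). Rimbp2, which links RIM proteins to calcium channels and was the most abundant of these scaffolds, was at 43.1, 53.8, 49.6, 47.1 and 52.5 FPKM in FL and at 42.3, 52.2, 47.8, 43.4 and 39.5 FPKM in KO, with a wide overlap (adjusted p = 0.289 from limma). Rims2, the RIM of insulin granule docking, was at 11.3 ± 1.03 and 10.6 ± 1.12 FPKM, Rims3, a short RIM, at 41.1 ± 4.57 and 43.3 ± 7.19 FPKM, and Erc1, or ELKS, at 5.99 ± 0.150 and 6.03 ± 0.290 FPKM in FL and KO (SD, n = 5). The coefficient of variation of Erc1 in FL was 2.51%, and only that of Syn1, at 2.32%, was smaller among the members.

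Complexins bind the assembled SNARE bundle and hold it until calcium arrives. Cplx2 was at 166, 194, 178, 160 and 187 FPKM in FL and at 150, 148, 154, 153 and 141 FPKM in KO. All KO mice were below all FL mice, by a narrow gap between KO mouse 3 and FL mouse 4 (log2 fold change −0.24, SE 0.06, adjusted p = 0.0121 from limma). Cplx1 was far lower, at 0.000619 to 0.0128 times Cplx2 within FL libraries and 0.00438 to 0.0151 times within KO libraries. It had the highest coefficient of variation of any member in both groups. Its level was 1.65, 1.23, 0.110, 0.182 and 2.41 FPKM in FL and 0.658, 0.724, 1.197, 2.30 and 1.03 FPKM in KO. FL mice 3 and 4 were near 0 while FL mouse 5 was the highest of all 10, and the 95% interval of the log2 fold change ran from −0.58 to 0.85. The log2 fold change itself was 0.14, and 0.53 with a pseudocount of 0.1, without a call in either fit (adjusted p = 0.795 and 0.602 from limma).

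Synapsins are phosphoproteins on the surface of vesicles that tie them to each other and to the cytoskeleton. Syn2, synapsin II, was at 27.3, 28.6, 28.4, 29.9 and 27.2 FPKM in FL and at 17.7, 19.0, 16.6, 18.2 and 16.5 FPKM in KO. A gap of 8.25 FPKM separated the highest KO from the lowest FL mouse, and the fall of 37.7% had the lowest adjusted p of the list (log2 fold change −0.65, SE 0.05, adjusted p = 6.61e-06 from limma). Syn1, synapsin I, was at 44.7, 44.1, 46.0, 43.9 and 46.2 FPKM in FL and at 40.6, 48.7, 42.4, 38.4 and 39.7 FPKM in KO. All KO mice but mouse 2, which was the highest of the 10, were below the FL range, and Syn1 did not pass with all mice (adjusted p = 0.247 from limma) but did without KO mouse 2 (0.0230), the mouse that overlapped. Syn1 passed in 2 of the 19 alternatives, with adjusted p up to 0.564 from limma.

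Within a library, the ratio of 2 genes does not depend on how libraries were scaled, and such ratios of related genes are given as a description, without a test. Syn1 was 1.47 to 1.70 times Syn2 in FL and 2.11 to 2.57 times in KO, and this was the only one of 11 ratios whose groups were separate. Cadps was 5.66 to 9.05 times Cadps2 in FL and 4.27 to 5.76 times in KO, where only KO mouse 3 reached the FL range. Unc13a to Unc13b was 1.14 to 1.62 in FL and 0.806 to 1.35 in KO. Vamp2 to Vamp8 was 0.644 to 0.785 in FL and 0.532 to 0.673 in KO. The ratio of Snap25 to Snap23 spanned 1.63 to 2.198 in FL and 1.77 to 2.33 in KO, and that of Vamp2 to Vamp3, of which the second was called, 1.69 to 2.32 and 2.05 to 2.31.

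**Figure D3:**
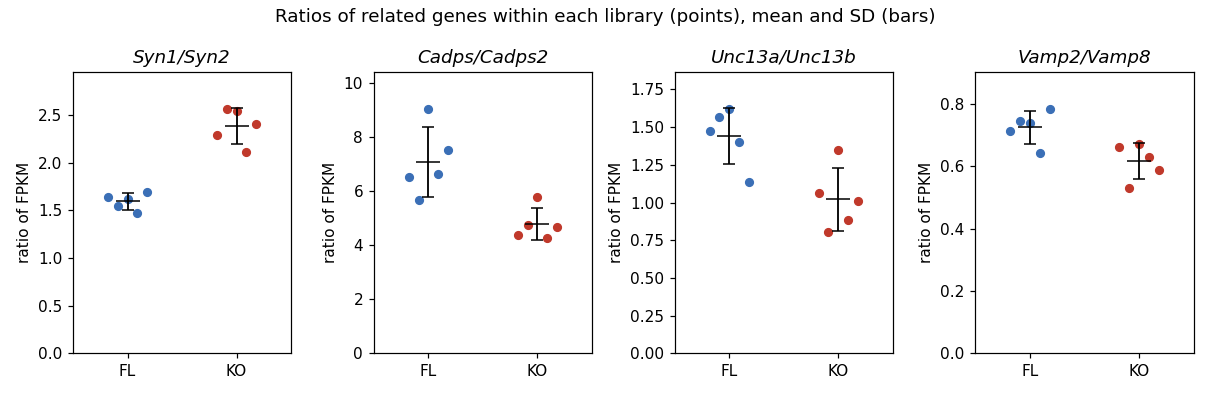
Ratio of FPKM of related genes within each library (points, vertical axis from 0) in FL and KO islets, with mean and SD as black bars. The KO mice lie above the FL mice for Syn1/Syn2, at 2.11 to 2.57 against 1.47 to 1.70, and mostly below them in the other 3 panels, where the groups overlap.

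None of the 3 genes of SNARE disassembly passed. Napa, which encodes α-SNAP, the adaptor that brings the ATPase NSF to spent bundles, had the highest level of all members. It was at 288, 262, 304, 307 and 276 FPKM in FL and at 257, 294, 257, 231 and 245 FPKM in KO, with KO mouse 2 alone inside the FL range (adjusted p = 0.111 from limma, and 0.0262 without that mouse). Leaving out the mouse that overlaps favours a call, and Napa passed in 2 of the 19 alternatives (adjusted p up to 0.252 from limma). Napb, β-SNAP, was 47.2 to 124 times less abundant than Napa, at 2.98, 2.99, 2.46, 2.47 and 2.97 FPKM in FL and at 3.37, 2.83, 4.02, 4.89 and 3.06 FPKM in KO. Again only KO mouse 2 was within the FL range, here from the other side (adjusted p = 0.0971 from limma, and 0.0467 without it). Napb passed in 2 of the 18 alternatives that tested it, with adjusted p up to 0.190 from limma. Nsf itself was at 42.9 ± 5.30 FPKM in FL against 45.6 ± 2.04 FPKM in KO (SD, n = 5; adjusted p = 0.417 from limma).

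The 6 exocyst subunits of the list showed 1 rise and no fall. Exoc4, a core subunit, was at 24.6, 26.0, 26.3, 24.8 and 26.8 FPKM in FL and at 33.3, 36.7, 30.5, 27.3 and 27.4 FPKM in KO. KO mice 4 and 5 were just above the highest FL mouse, and the log2 fold change was 0.26 (SE 0.08, adjusted p = 0.0354 from limma). The call was lost when any FL mouse was left out (adjusted p of 0.0723, 0.0593, 0.0599, 0.0709 and 0.0523 without FL mice 1 to 5), without KO mouse 1 (0.0843) or KO mouse 3 (0.0545), and with no filter on low values (0.0632). Exoc2, which binds the small GTPase RalA, was at 17.3, 15.4, 16.5, 18.8 and 16.5 FPKM in FL and at 15.3, 14.0, 15.9, 15.1 and 12.9 FPKM in KO, just short of the threshold (log2 fold change −0.20, SE 0.07, adjusted p = 0.0512 from limma), and it passed without FL mouse 2 (0.0393) or KO mouse 3 (0.0381), and with a mean of at least 5 FPKM asked of each gene (0.0455). Exoc5, the listed subunit with the highest FL mean, was at 34.5, 32.2, 32.0, 36.9 and 29.2 FPKM in FL and at 32.4, 25.4, 33.5, 31.8 and 25.2 FPKM in KO, and KO mice 2 and 5 were below every FL mouse while the other 3 were within the FL range. Exoc1, Exoc3 and Exoc6 were at 16.9 ± 1.47, 16.6 ± 0.662 and 13.9 ± 1.07 FPKM in FL and at 17.0 ± 1.59, 15.8 ± 1.21 and 13.3 ± 1.01 FPKM in KO (SD, n = 5), each with overlapping groups.

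Among themselves the members spanned a wide range of levels. In FL islets 5 had a mean of at least 100 FPKM, namely Napa, Cplx2, Vamp8, Stxbp2 and Vamp2, and 7 were under 10 FPKM, namely Stxbp5l, Stx1a, Cadps2, Erc1, Napb, Doc2b and Cplx1. No member was at 0 in any library. The spread between mice was small, with a median coefficient of variation of 7.98% in FL and 9.38% in KO. KO mouse 2 was the highest KO mouse in 15 members and the lowest in 12, KO mouse 3 was the highest in 18, and KO mouse 5 was the lowest in 18. The acinar marker sums of KO mice 1 to 5 were 4430, 2469, 2511, 7169 and 18150 FPKM, and their part in these extremes was not tested. Without KO mouse 2, 12 members were called lower and 2 higher, where 18.1% and 8.11% of all tested genes were. Without KO mouse 4 these were 6 and 1 members, and 12.2% and 7.31% of all tested genes. Summed over the 43 members, the FPKM came to 1913 to 2016 in FL mice and 1732 to 1874 in KO mice, a sum in which Napa, Cplx2, Vamp8, Stxbp2 and Vamp2 weigh most. Over all tested genes the sums were 644590 to 673968 FPKM in FL mice and 625455 to 651669 FPKM in KO mice.

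**Figure D4:**
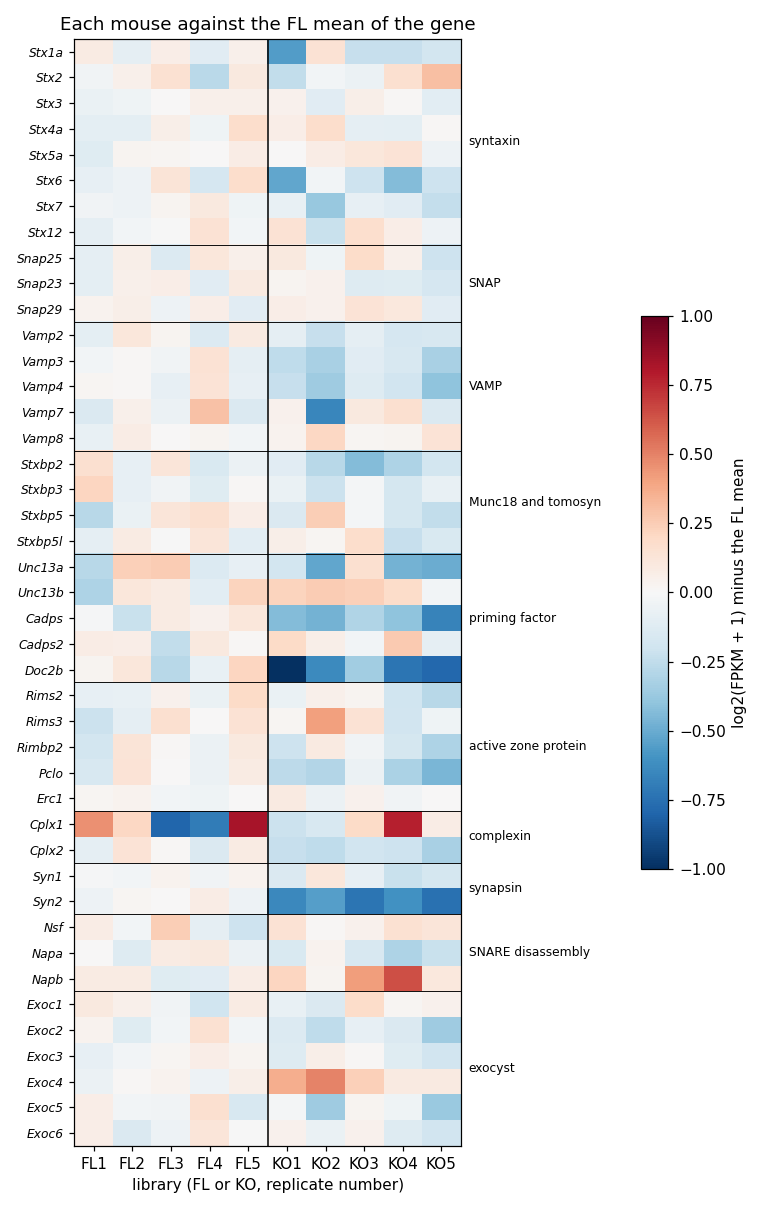
Each of the 43 members (rows, by role) in each of the 10 libraries (columns) as log2(FPKM + 1) minus the FL mean of the gene, with blue below and red above that mean and the colour scale ending at −1 and 1. Doc2b, Syn2 and Cadps are blue in all 5 KO columns, Cplx1 changes colour between mice of the same group, and KO2 departs from the other KO columns for Stx1a, Stx7 and Vamp7.

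The same families hold further genes outside the list, which were taken by family membership. Of 56 found in the table, 40 were tested, and 7 were lower and 1 higher in KO, which is 17.5% and 2.5% against the 16.5% and 9.05% of all tested genes. Baiap3, a Munc13-related protein of dense core vesicle traffic, was at 68.8 ± 6.95 FPKM in FL against 48.4 ± 11.3 FPKM in KO (log2 fold change −0.52, adjusted p = 0.0158 from limma), and the active zone proteins Bzrap1, at 2.24 ± 0.517 and 1.16 ± 0.563 FPKM, and Erc2, at 2.64 ± 0.162 and 2.12 ± 0.230 FPKM, were also lower (SD, n = 5). Llgl1 and Llgl2, relatives of the tomosyns, and Vps45, a Munc18-like protein of endosomes, had log2 fold changes of −0.29, −0.22 and −0.32. The gene that rose was Stx17, a syntaxin of autophagosomes, from 9.36 ± 0.394 to 11.9 ± 1.21 FPKM (log2 fold change 0.32, adjusted p = 0.00508 from limma). The number of such calls was 7 in place of 8 without KO mouse 3, 6 without FL mouse 2, FL mouse 4 or KO mouse 5, 5 without FL mice 1, 3 or 5 or KO mouse 1, each mouse left out alone, and 4 without KO mouse 2 or KO mouse 4. In these fits 12.2% to 18.1% of all tested genes were called lower and 7.17% to 8.65% higher, and the share called lower was 18.1% without KO mouse 2 and 12.2% without KO mouse 4. Unc13c, Unc13d, Rims1, Rims4, Doc2a, Cplx3, Cplx4 and Syn3, paralogs of members, had means under 1 FPKM in both groups and were not tested.

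The called members lie on different chromosomes for the most part. In GENCODE release M21 of GRCm38, Syn2 spans chr6:115134902-115282006 and Exoc4 chr6:33249085-33973979, both on the plus strand. Cadps is at chr14:12372563-12823079, Doc2b at chr11:75768966-75796049 and Vamp3 at chr4:151047300-151057963, all on the minus strand. Pclo is at chr5:14514918-14863459, Vamp4 at chr1:162570515-162599084, Cplx2 at chr13:54371349-54383917 and Stxbp2 at chr8:3630955-3643644, on the plus strand. Of these, Doc2b, Pclo and Syn2 share exon bases with genes on the opposite strand, whose means were at or below 0.0105 FPKM in both groups.

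For 37 of the 43 members RefSeq gives a promoter on GRCm38.p6. The 250 bases before the annotated start are shown for the 4 lower members whose RefSeq start is also the start of the GENCODE gene. Capitals mark the motifs that were searched for on both strands: the GC box GGGCGG, the cAMP response element TGACGTCA, the E box CACGTG, the further E box CAGCTG, the TATA box TATAAA, and as a core of the Maf recognition element TGCTGAC. No motif contains another.
Syn2, plus strand, chr6:115134652-115134901: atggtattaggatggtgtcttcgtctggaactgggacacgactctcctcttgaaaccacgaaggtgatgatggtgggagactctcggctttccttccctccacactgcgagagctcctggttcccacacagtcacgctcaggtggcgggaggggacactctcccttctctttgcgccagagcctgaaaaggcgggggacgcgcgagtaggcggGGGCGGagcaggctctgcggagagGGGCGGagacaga
Cadps, minus strand, chr14:12823080-12823329: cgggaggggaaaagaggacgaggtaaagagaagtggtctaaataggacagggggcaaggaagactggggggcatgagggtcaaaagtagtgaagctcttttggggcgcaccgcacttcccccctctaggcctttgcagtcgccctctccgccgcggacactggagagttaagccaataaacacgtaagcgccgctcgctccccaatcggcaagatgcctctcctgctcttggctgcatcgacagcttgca
Pclo, plus strand, chr5:14514668-14514917: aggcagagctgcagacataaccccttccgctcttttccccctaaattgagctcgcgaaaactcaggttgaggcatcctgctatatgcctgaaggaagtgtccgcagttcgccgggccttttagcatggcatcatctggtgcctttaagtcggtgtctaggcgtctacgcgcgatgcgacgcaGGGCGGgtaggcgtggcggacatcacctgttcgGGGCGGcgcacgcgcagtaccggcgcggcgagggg
Vamp4, plus strand, chr1:162570265-162570514: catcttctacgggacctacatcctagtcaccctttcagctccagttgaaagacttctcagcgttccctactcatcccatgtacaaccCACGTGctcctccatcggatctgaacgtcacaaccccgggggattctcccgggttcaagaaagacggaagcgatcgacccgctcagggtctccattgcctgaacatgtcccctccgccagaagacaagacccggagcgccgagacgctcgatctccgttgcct

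Syn2 and Pclo each hold 2 GC boxes, starting 37 and 13 bases before the start of Syn2 and 68 and 35 bases before that of Pclo. Vamp4 holds 1 CACGTG, and Cadps holds none of the motifs. No motif is thus shared by the 4 sequences. A further RefSeq start of Vamp4, not shown, has a GC box before it, and a further start of Syn2, also not shown, has none of the motifs. GGGCGG was in 54.3% of the 46 member promoters and in 57.6% of the promoters of tested genes, and CACGTG in 19.6% and 8.29%. CAGCTG was in 21.7% and 12.0%, TGACGTCA in 4.35% and 2.69%, TATAAA in 4.35% and 6.33%, and TGCTGAC in 0 of the member promoters and in 3.06% of those of tested genes. A gene can have several starts, so these shares count starts and not genes. All 4 promoters were rich in G and C, at 61.2% for Syn2 and for Pclo, 58.0% for Cadps and 57.2% for Vamp4, against a median of 60.0% over the promoters of tested genes.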

How the data were processed

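Polyadenylated RNA of islets of 5 FL and 5 KO mice was sequenced from stranded libraries with single-end reads of 75 nt. The authors deposited 1 table of FPKM, described as normalized, with a column per mouse. The submitters' processing notes name STAR 2.5.2a, Cuffnorm 2.2.1, mm10 and GRCm38, and the scaling of libraries and the strand setting are not given in the sources used here. The reads were not processed again.

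The test of KO against FL used log2(FPKM + 1) in limma 3.58.1 (R 4.3.3; lmFit and eBayes with a trend) without covariates, on genes averaging 1 FPKM or more in a group, with Benjamini-Hochberg adjustment. Intervals are 95%. The procedure was tested on simulated data. Summaries used Python 3.11.15 and pandas 2.3.3. Every member is named, and called members and the most abundant member of each role are given for every mouse. The members, lists and motifs were chosen with earlier results of these data known. The labels do not say whether mice share litters, and p-values measure the spread between these libraries.

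Alternatives were a pseudocount of 0.1, no filter or at least 5 FPKM, 3 rescalings, no trend, sample weights, the replicate number as a block and leaving out each mouse. One of the further family genes is not reported here by name.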

Additional observations from a re-analysis of the deposited data

Results flagged for a closer look

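In 2 of 88 groups of 5 mice (the members and Fitm2, in FL and in KO) 1 mouse stood far from the other 4, where chance gives about 4.4. For Unc13b, KO mouse 5 was at 12.9 FPKM and the other KO mice were between 15.1 and 15.9 FPKM. For Cadps2, FL mouse 3 was at 5.11 FPKM against 6.32 to 6.79 FPKM in the 4 remaining FL mice.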

How the results depend on the processing

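Of 814 combinations of a member and an alternative, 733 kept direction and side of the threshold, 23 lost the call, 17 gained it and 41 changed sign, none of these last with a call. Syn2, Cadps, Vamp3, Vamp4 and, where tested, Doc2b were called throughout. The number of members called lower was 13 with sample weights, which called 21.7% of all tested genes lower. The number called higher was 0 when all genes were tested whatever their FPKM (5.08% of all tested genes), 0 with the replicate block (6.69%), 2 with sample weights (11%), and 0 to 2 leaving out each mouse. The number of further family genes called was 5 with same-sum rescaling (11.7% of all tested genes lower and 10.6% higher) and 4 to 7 leaving out each mouse (12.2% to 18.1% and 7.17% to 8.65%). Deviations of same-numbered FL and KO mice correlated at −0.10 to 0.00, so the replicate numbers share only a number. With the block the calls of Cplx2 (adjusted p = 0.05002 from limma), Pclo (0.0594) and Exoc4 (0.0670) were lost and Stx6 passed (0.0468).

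Signs changed in 11 members, all without a call. Log2 fold changes of Stx3 and Stxbp5l were 0.0259 and 0.0175 with median-ratio, 0.0267 and 0.0182 with upper-quartile and 0.0211 and 0.0134 with same-sum rescaling. With sample weights they were −0.0829 for Stx2, −0.0227 for Stx4a, −0.0208 for Rims3, −0.0192 for Exoc1, 0.00532 for Stx3 and 0.0353 for Vamp7. Leaving out each mouse gave −0.0755 to 0.0265 for Stxbp5l, −0.0251 to 0.0716 for Snap25, −0.0147 to 0.0823 for Stx12, −0.0448 to 0.0921 for Stx2, −0.0124 to 0.0249 for Erc1, −0.0265 to 0.0573 for Stx4a, −0.0170 to 0.13 for Rims3, −0.0632 to 0.34 for Cplx1, −0.0445 to 0.0429 for Exoc1, −0.0410 to 0.00206 for Stx3 and −0.16 to 0.0386 for Vamp7. The causes were not tested. The table holds no read counts, so no counting error is given for Doc2b and Cplx1, the members with the lowest FPKM.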
